A study of Picea abies with 48 samples.

Results

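Described here are the 200 *Picea abies* (Norway spruce) genes whose share of the RNA varied least over a grafting time course. They were chosen by measured values. Counts were turned into CPM (the count over the total of the library, times 1000000), and 13303 of 70736 gene models had a mean of 10 to 300 CPM over the 48 libraries. These were ranked by the standard deviation (SD) of log2(CPM + 0.5) over all 48 libraries, and the 200 with the lowest SD were taken, 1.50% of the genes in that range. As every library entered the choice, the low spread itself is a description and is not tested.

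Wild-type seedlings of the seed lot FP-96 Skogsgård were cut in the hypocotyl, and the shoot of one plant (scion) was joined to the root part of another (rootstock). RNA came from about 1 mm of tissue on each side of the junction and from 2 mm of intact hypocotyl. Times are given as days after grafting (DAG): grafts were sampled at 1, 3, 7, 14 and 28 DAG, and intact plants then and at day 0. This gives 16 groups of 3 libraries: 18 of intact plants, 15 of scion and 15 of rootstock. Plants were pooled within each replicate, so the spread between replicates is that between pools, and intact plants carried no cut and no collar.

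Genes that hold a steady share of the RNA serve as internal references: in quantitative PCR and in RNA sequencing a change of another gene is read as its ratio to them. Such references are usually sought among genes of basic cell functions, and each needs testing in the tissue and treatment at hand. Wounding is a hard case, since cells at a cut surface enlarge, divide, form callus and differentiate into new phloem and xylem within days. In such bulk samples fewer cells of a type and less RNA per cell cannot be told apart.

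None of the 200 genes was among the 4268 spruce identifiers that the study's tables annotate, so they are named by identifier and no role is given to any of them. Those tables list differentially expressed genes and genes that the study analysed, so genes of little variation are unlikely to be in them. The study's own graft genes were not in the set, which follows largely from how both were chosen. Of its 10 named homologues of *Arabidopsis* genes, 4 lay in the CPM range. The lowest SD among them was 0.744, that of *PaCDKB2;2-like* (MA_920994g0010), a homologue of a mitotic cyclin-dependent kinase, and 11448 genes in the range varied less. Its highest library was 5.56 times its lowest, taken from log2(CPM + 0.5). *PaVND4-like* (MA_6777g0010) and *PaPRX66-like* (MA_10431507g0020), used as xylem markers, had SDs of 1.37 and 1.73, and the wound-response gene *PaERF115-like* (MA_10274g0010) had 2.57. The other 6, among them the phloem regulator *PaAPL-like* and the callus regulators *PaWOX13-like* and *PaWIND1-like*, had means under 10 CPM and could not enter. The study's lists of cell-wall genes and of its yellow co-expression module also gave no member: the lowest SD was 0.293 in the pectate and pectin lyases (16 genes in range), 0.457 in the pectin methyl esterases (20), 0.755 in the beta-1-4-glucanases (7), 0.762 in the laccases (16) and 0.495 in the yellow module (26). The module was drawn from transcription factors that changed during grafting, so a gene of this set could hardly be in it. At 1.50% of the range, lists of this size would hold few members in any case.

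Libraries held 11511598 to 27687377 counts, with a median of 18054427, and no 2 replicates were near-identical: chi-square over its degrees of freedom was 3.15 to 15.6 in the 48 replicate pairs. The 200 genes together took 1.28% to 1.53% of a library's counts. The lowest count of any of them in any library was 99, so counting error was small for most of them.

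The SDs of the 200 genes ran from 0.0888 to 0.136 on the log2 scale, with a median of 0.127, against a median of 0.331 over all genes in the range. Counting alone would give the 200 genes a median SD of 0.0468, and it made up a median of 14.4% of the variance of the 200 genes. In fold terms, the highest of the 48 libraries was 1.29 to 1.65 times the lowest. All 200 genes stayed within 2-fold over the 48 libraries, as did 3719 genes of the range, and 146 of the 200 stayed within 1.5-fold. The means of the 16 groups were closer still: the highest was 1.16 to 1.42 times the lowest for each of the 200, so that all stayed within 1.5-fold, while 1586 genes of the range stayed within 1.5-fold.

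**Figure D1:**
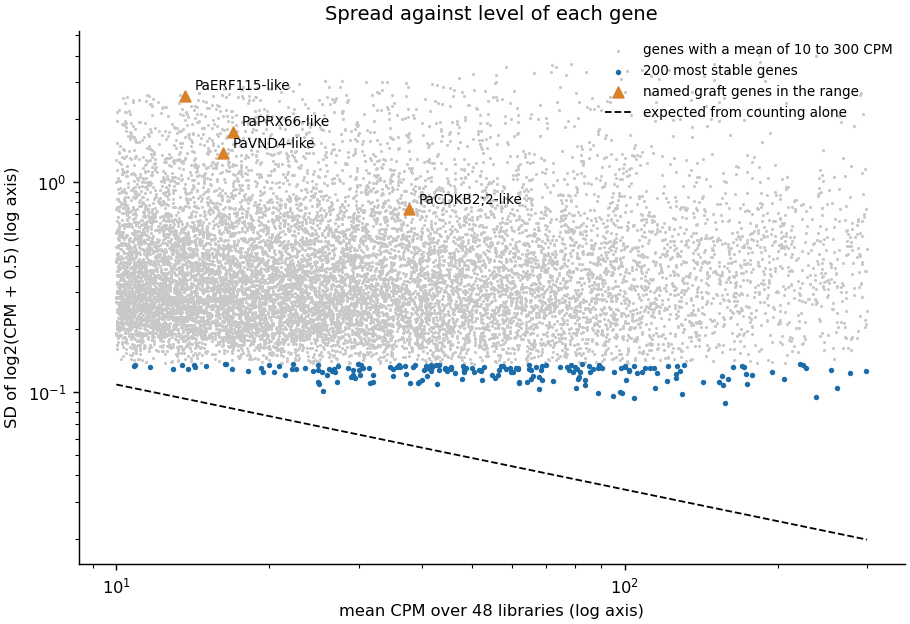
Each point is a gene with a mean of 10 to 300 CPM (log axis), placed by the SD of log2(CPM + 0.5) over the 48 libraries (log axis). The 200 chosen genes (blue) form the lower edge, above the SD expected from counting alone (dashed line), and the 4 named graft genes in the range (triangles) lie at SDs of 0.744 to 2.57.

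The cut at rank 200 fell in a dense stretch. The last genes inside were MA_10432271g0010, MA_71886g0010 and MA_10430939g0010, with SDs of 0.1358, 0.1359 and 0.1363. The first outside were MA_10434038g0010, MA_41176g0010 and MA_227949g0010, with 0.1364, 0.1367 and 0.1368. The set has an edge by rank and not by a gap.

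The rule took genes with many reads more often than others. Counting error adds most to the SD of genes with few reads, and made up a median of 3.60% of the variance in the range. Ranked by the SD beyond counting, 145 of the 200 stayed. How far counting error accounts for the higher read numbers was not tested. The 200 genes had a median of 53.8 CPM against 25.4 in the range, and 16 of them (8%) were under 20 CPM against 38.7% of the range. CPM is not divided by gene length, so it ranks the genes by reads and not by transcripts. The 3 with the fewest reads, MA_58122g0010, MA_14737g0010 and MA_10435212g0010, averaged 10.8, 10.9 and 11.6 CPM and carried a counting SD of 0.104, 0.104 and 0.101, most of their SDs of 0.133, 0.134 and 0.131. The 3 with the most, MA_82655g0010, MA_31136g0010 and MA_10431660g0010, averaged 299, 278 and 262 CPM with counting SDs of 0.0198, 0.0206 and 0.0212. Nearly all of the spread of these 3 therefore lay beyond counting.

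The 10 genes of lowest SD were, in order, MA_16118g0010, MA_2284g0010, MA_93384g0010, MA_10431523g0010, MA_10430240g0020, MA_10430844g0010, MA_171460g0010, MA_412882g0010, MA_10166571g0010 and MA_10428704g0010. Their means ran from 25.5 to 238 CPM, their SDs from 0.0888 to 0.103, and in plain CPM their highest library was 1.29 to 1.45 times their lowest.

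MA_16118g0010, the first, had a lowest, median and highest value of 141.9, 155.8 and 171.6 CPM in intact plants. In scion the same values were 152.8, 160.0 and 173.4 CPM, and in rootstock 140.8, 153.6 and 182.0 CPM. The 3 tissues overlapped over most of their range. Its highest group was rootstock at 1 DAG (160.7, 182.0 and 177.1 CPM) and its lowest were intact plants at 7 DAG (141.9, 142.3 and 144.3 CPM). These 2 groups, the extremes of 16, did not overlap.

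MA_93384g0010, the third, shows a difference by tissue. Its lowest, median and highest values were 222.8, 245.3 and 270.7 CPM in intact plants and 212.4, 245.8 and 260.2 CPM in scion. In rootstock they were 208.2, 218.7 and 252.6 CPM, so the rootstock median lay under the lowest intact library. MA_412882g0010, the eighth, started high: it had its highest group in intact plants at day 0, with an intact range of 88.8 to 116.3 CPM, and its lowest in rootstock at 7 DAG, with a rootstock range of 80.2 to 98.8 CPM. MA_10166571g0010, the ninth, was the only one of the 10 under 60 CPM, with 23.4 to 31.0 CPM in intact plants, 21.9 to 26.8 in scion and 22.4 to 28.7 in rootstock.

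**Figure D2:**
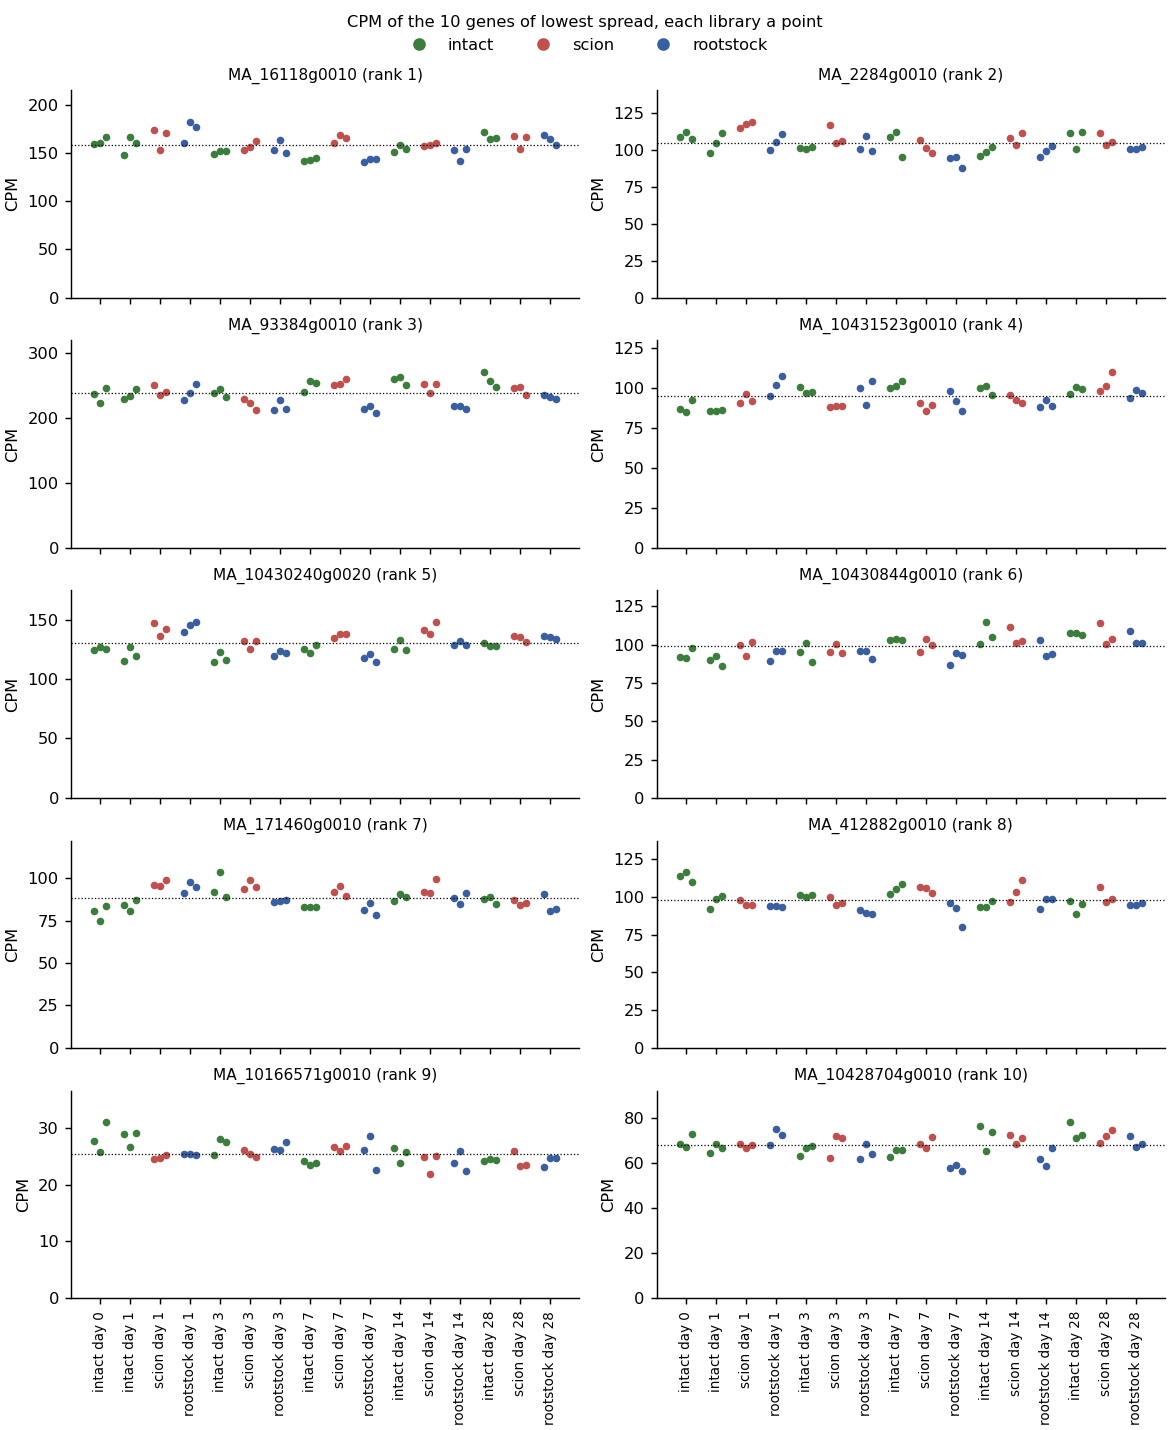
CPM (y axis, from 0) of the 10 genes of lowest SD in the 16 groups in order of time, each point a library and the dotted line the mean over 48 libraries. Points of a group lie close together, and the means of the highest and lowest group still differ by up to 0.35 on the log2 scale, in MA_10428704g0010 between intact plants at 28 days and rootstock at 7 DAG.

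Among the 200 identifiers, only MA_10430240g0020 (rank 5) and MA_10430240g0010 (rank 24) share a stem, which in this annotation names the genome scaffold. The pair was noticed after the values were seen. The 2 did not follow each other. MA_10430240g0020 had its highest group in rootstock at 1 DAG, with 139.4, 145.0 and 147.9 CPM against 115.5, 127.2 and 119.6 CPM in intact plants of that day. There MA_10430240g0010 had its lowest group, with 20.7, 22.4 and 22.8 CPM against 23.8, 25.4 and 23.6 CPM in intact plants.

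What variation was left went mostly with the groups. The share of a gene's variance that lay between the 16 groups had a median of 71.1% and was over 50% for 180 of the 200 genes. Groups of 3 that do not differ would give 31.9% on average (15 of 47 degrees of freedom), and all genes in the range had a median of 90.4%. The SD between replicates within a group had a median of 0.0794, against 0.129 for the range. The set is thus chosen for small group differences, and small ones were still there beside an even smaller spread between replicates.

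The highest shares were those of MA_10436042g0030, MA_92132g0010 and MA_177756g0010, with 92.0%, 91.8% and 90.6%. MA_10436042g0030 had 104.0, 106.3 and 104.9 CPM in intact plants at day 0 and 99.1, 98.8 and 102.7 CPM a day later, against 131.3, 127.4 and 124.8 CPM in rootstock at 1 DAG. No rootstock library of that day came near the intact ones. The lowest shares were those of MA_10431137g0010, MA_14737g0010 and MA_478564g0010, with 22.6%, 30.1% and 30.3%. In MA_10431137g0010 the lowest library was 12.6 CPM and the highest 19.8 CPM, both of rootstock, and its 16 group means stayed within a log2 range of 0.22, the narrowest of any gene in the CPM range. These 3 average 16.4, 10.9 and 22.5 CPM, and counting alone gives them SDs of 0.0847, 0.104 and 0.0723.

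The 200 genes did not vary independently of each other. A principal component analysis of their log2 CPM put 22.1% of the variance on a first component to which 175 of the 200 genes contributed with the same sign, and 90.1% of the variation of its scores lay between groups. The scores were highest in scion at 7 DAG (1.08 to 1.38 over the 3 libraries) and 14 DAG (1.01 to 1.36), and lowest in rootstock at 7 DAG (−2.32 to −1.04). The second component held 10.3% and differed both with time and between grafted and intact tissue. In intact plants its mean went from −0.55 at day 0 to 0.95 at 14 DAG and was 0.74 at 28 days. At 14 DAG its mean was −0.15 in scion and −0.009 in rootstock.

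The same pattern showed gene by gene. Scion at 7 DAG was the highest of the 16 groups for 43 of the 200 genes, against 6.16% of the genes in the range, and 161 of the 200 lay above their own mean there, by a median of 0.088 on the log2 scale. In the range, 72.7% of genes lay above their mean in that group, by a median of 0.123, so the rise in CPM was not one of the 200 genes alone. Rootstock at 7 DAG was the lowest group for 40 genes, against 5.75% of the range, with 29 above their own mean and a median of −0.104. In the range, 39.3% lay above their mean there, and the median was −0.063. One library stood apart there: rootstock replicate 3 had a median of −0.170, against −0.081 and −0.064 in replicates 1 and 2. Without it the group median was −0.068 and the group was the lowest for 28 genes.

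Values in CPM depend on the library's total, which a few abundant genes can move. TMM (trimmed mean of M values) scaling, which sets the bulk of the genes level between libraries, changed the pattern. On TMM libraries the median deviation in scion at 7 DAG was −0.037, and in rootstock at 7 DAG −0.044, so that the gap between them closed. Intact plants at day 0 and 1 DAG and rootstock at 1 DAG came out highest instead. The intact plants went from −0.030 in CPM to 0.099 at the start and from −0.059 to 0.096 a day later, and rootstock of that day from −0.018 to 0.114. Scion at 1 DAG did not join them and went from 0.041 to 0.022. Scion at 14 DAG went from 0.072 to −0.082, with 154 of 200 genes above their own mean in CPM and 30 on TMM. Of the genes in the range, 70.2% lay above their own mean there in CPM, by a median of 0.151. The median of the range in CPM was −0.114 in intact plants at day 0 and −0.133 a day later. It was −0.100 in rootstock at 1 DAG. Among these groups, the direction of the drift of the whole set thus turned with the scaling in scion at 7 and 14 DAG. It also turned in intact plants at day 0 and 1 DAG and in rootstock at 1 DAG. In scion at 1 DAG and rootstock at 7 DAG the direction stayed and the size fell. Which scaling is closer to the amount of RNA per cell was not tested.

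**Figure D3:**
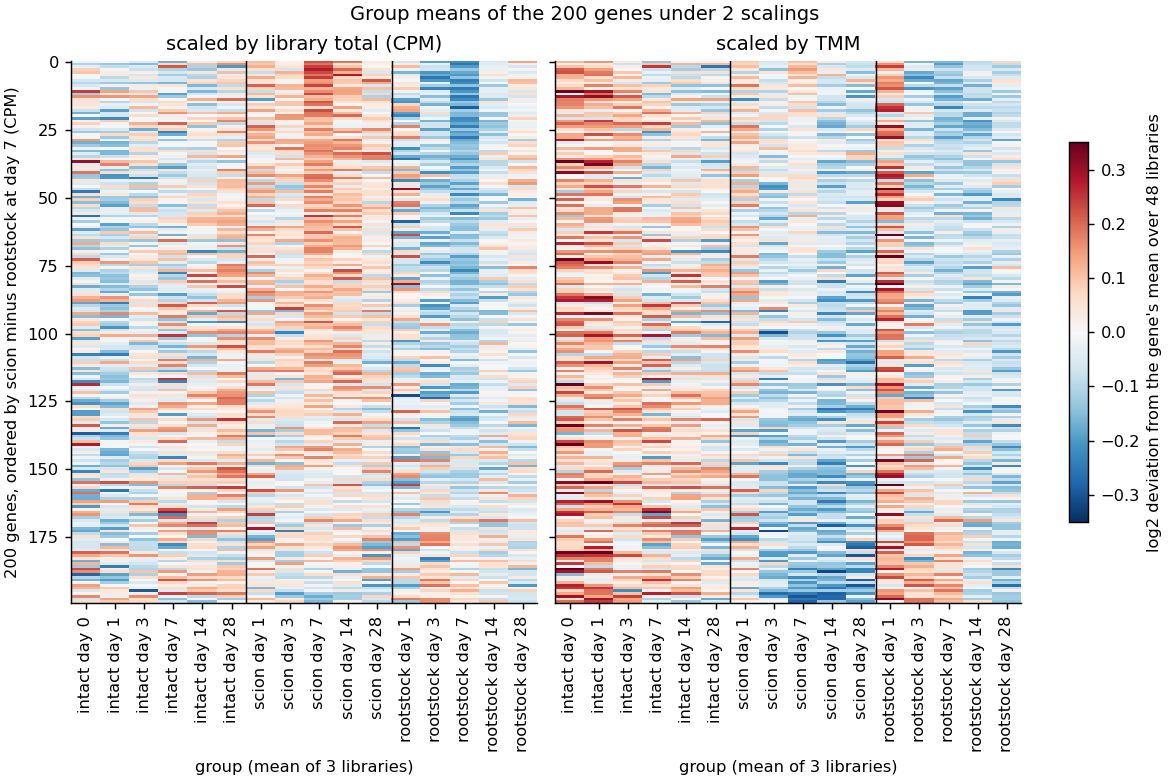
Log2 deviation of each group's mean from the gene's mean over 48 libraries (colour), for the 200 genes (rows, in 1 order in both panels) and 16 groups (columns), scaled by library totals (left) or by TMM (right). In CPM scion at 7 and 14 DAG are high and rootstock at 7 DAG low, and on TMM libraries intact plants at day 0 and 1 DAG and rootstock at 1 DAG are high.

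The membership depended on the scaling as well. On TMM libraries the rule kept 84 of the 200 genes, and on DESeq2 size factors 62. All 62 of these were also kept on TMM. Of them, 32 were also chosen when any 1 of the 3 replicate numbers was left out, and 2 of these, MA_10430240g0020 and MA_10430844g0010, were among the first 10. The median SD of the original 200 was 0.130 on TMM libraries, and the 200 that TMM would choose had 0.112.

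MA_10431660g0010 (rank 11) and MA_10435320g0020 (rank 15), singled out after the values were seen, had the lowest SDs of the 200 genes on TMM libraries, 0.0622 and 0.0628, against 0.104 and 0.108 in CPM. In CPM, MA_10431660g0010 had 256.9, 251.0 and 254.6 in intact plants at day 0, 290.4, 276.4 and 286.5 in scion at 7 DAG, and 251.8, 251.5 and 240.4 in rootstock at 7 DAG. It thus moved with the drift of the whole set in CPM, and did so much less on TMM libraries. For MA_16118g0010, the first by CPM, the SD went the other way, from 0.0888 to 0.123.

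Averaging several of the genes lowered the spread up to a point. The mean log2 CPM of the first 3 genes had an SD of 0.0710 over the 48 libraries, that of the first 10 0.0520, and that of the first 50 0.0429, against 0.0888 for the first alone. With all 200 it was 0.0484, no lower than with 50. On TMM libraries the SDs were 0.123, 0.105, 0.0912, 0.0812 and 0.0695 in the same order of gene numbers (1, 3, 10, 50 and 200). These SDs come from the libraries that chose the genes.

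A measure that the choice did not use was had by leaving libraries out. The rule was applied to 32 libraries without replicate 1, 2 or 3, and the SD of the chosen genes was taken in the 16 libraries left out. The median SD there was 0.137, 0.131 and 0.136, against 0.323, 0.342 and 0.345 over all genes of the range in the same libraries. Of each 200 chosen, 181, 193 and 188 were among the 10% of genes with the lowest SD in the left-out libraries, and all 200 lay under the median each time. The left-out libraries are of the same 16 groups, so this shows the ranking to hold between replicates and not in new tissues. On TMM libraries the medians were 0.119, 0.121 and 0.118.

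Across conditions the choice carried over less far. The 200 genes chosen in the 18 intact libraries alone had a median SD of 0.172 in the 30 grafted libraries, against 0.271 over the range, and 67 of them were among the lowest 10%. Their highest SD there was 0.646. Chosen in the grafted libraries, the 200 had a median of 0.159 in intact plants, against 0.240, with 65 in the lowest 10%. Only 45 and 75 of the genes described here were chosen in intact or grafted libraries alone. Chosen without scion, genes had a median of 0.110 in scion, against 0.230, and chosen without rootstock 0.140 in rootstock, against 0.272.

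**Figure D4:**
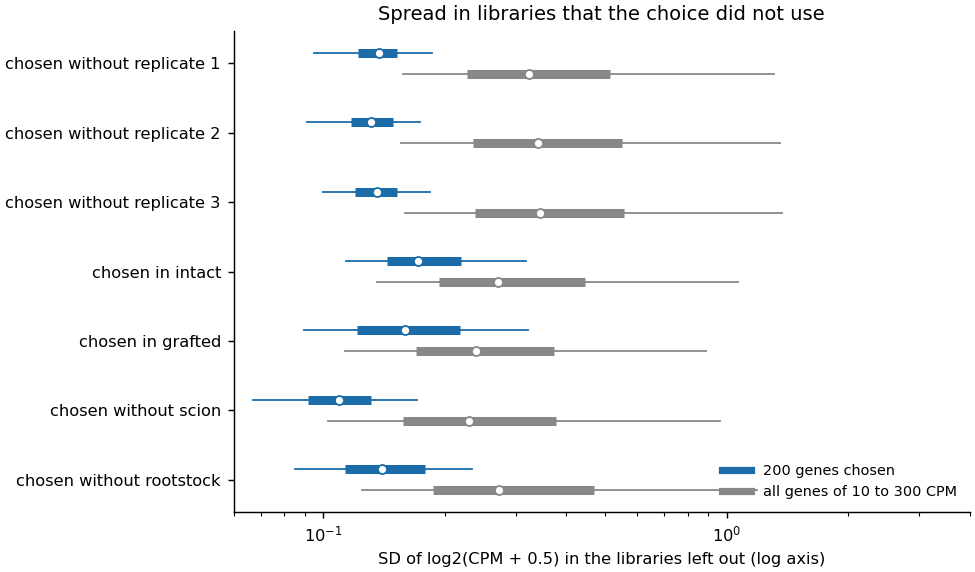
SD of log2(CPM + 0.5) in libraries that the choice left out (log axis) for the 200 genes chosen (blue) and all genes of the range (grey), for 7 ways of leaving libraries out. Points are medians, thick bars quartiles and thin lines the span from percentile 5 to 95; the medians of the chosen genes are 0.110 to 0.172 and those of the range 0.230 to 0.345.

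In the comparisons that the study was made for, the 200 genes showed differences that were all under the size that the study counts as a change. A quasi-likelihood model of edgeR with TMM scaling was fitted to 38436 genes, and all 200 passed its filter for low counts. The study counts a gene as changed where the adjusted *p* lies under 0.05 and the log2 fold change beyond 1 in either direction. By this rule none of the 200 was called in any of the 20 comparisons, against 53.8% of all genes tested and 42.1% of the genes in the CPM range in at least 1. DESeq2 also called none, and as none reached that fold in edgeR, an unadjusted *p* under 0.05 gives 0 as well. A gene chosen for an SD of at most 0.136 could hardly reach that size, so the count follows from the choice. The largest difference of any of the 200 was a decrease, of −0.62 on the log2 scale, and 199 of the 200 stayed under 1.5-fold in all 20.

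At any fold the test was sensitive enough to call many of them. Of the 200, 169 had an adjusted *p* under 0.05 in edgeR in at least 1 of the 10 comparisons of scion or rootstock with intact plants, against 88.2% of all genes tested and 97.8% of those in the range. Over all 20 comparisons 180 did, against 91.6% of all genes tested and 98.9% of those in the range, and 20 did not in any. The number of comparisons per gene had a median of 5 and reached 12. As the rule used these libraries, the counts are given as a description.

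In scion against intact plants, 62, 74, 66, 73 and 41 of the 200 passed at any fold at 1, 3, 7, 14 and 28 DAG, where 52.7%, 45.8%, 44.9%, 45.9% and 30.8% of all genes tested did. In rootstock the counts were 69, 79, 49, 63 and 28, where 59%, 46.8%, 33.6%, 40.8% and 25.2% of all genes did. Of the genes in the CPM range, 70%, 64.2%, 62.9%, 64.3% and 43.8% passed in scion. In rootstock 75%, 62.5%, 49.9%, 59.9% and 36.2% of the range did. The 2 tissues share the intact libraries of each day. Fits without 1 replicate number, which leave 2 libraries a group, gave the lowest counts, down to 32, 38, 27, 34 and 16 in scion and 40, 27, 16, 26 and 5 in rootstock, in order of day. These came without replicate 3, and at 3 DAG without replicate 2.

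Most of those that passed were lower in the graft. In scion, 57 of 62, 73 of 74, 58 of 66, 71 of 73 and 36 of 41 were lower, in order of day, where 28%, 21.6%, 19.8%, 20% and 12.6% of all genes tested were lower. With library size alone in place of TMM, the direction turned in 4 of these 5: 66 genes were higher and 9 lower at 1 DAG, followed by 30 and 16, 58 and 9, and 43 and 12, with 7 higher and 17 lower only at 28 DAG. That scaling raised the median of all genes by 0.042 to 0.172 in these 5. The shares of all genes in this paragraph are with TMM only, so counts with library size alone are not set against all genes. In rootstock, 39 were higher and 30 lower on the first day, where 28% and 31% of all genes were, and then 68 of 79, 41 of 49, 58 of 63 and 26 of 28 were lower. Of all genes tested, 23.2%, 16%, 18.4% and 9.98% were lower at these later days. With the 200 genes themselves as the reference for scaling, the splits were near even by construction, such as 23 higher and 27 lower in scion at 14 DAG. With library size alone rootstock had 45 higher and 23 lower at 1 DAG, and 16 and 35, 7 and 56, 9 and 36, and 3 and 20 after that.

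A change of library scaling moves all genes of a comparison by nearly the same amount. The place of the 200 genes among all genes therefore stays nearly the same by construction, and its agreement between scalings is no test. Between TMM and library size alone, the median log2 fold change of all genes tested moved by −0.028 to 0.186 over the 20 comparisons. Relative to that median, the median of the 200 genes was lower in 9 of the 10 comparisons with intact plants, by up to −0.185 (scion at 14 DAG), and by nearly the same with library size alone (−0.183). The exception was rootstock at 1 DAG, where the median of the 200 lay 0.063 above that of all genes with TMM and 0.062 with library size alone. The genes in the CPM range lay nearer there: with TMM the medians were 0.017 for the 200, −0.015 for the range and −0.045 for all genes.

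**Figure D5:**
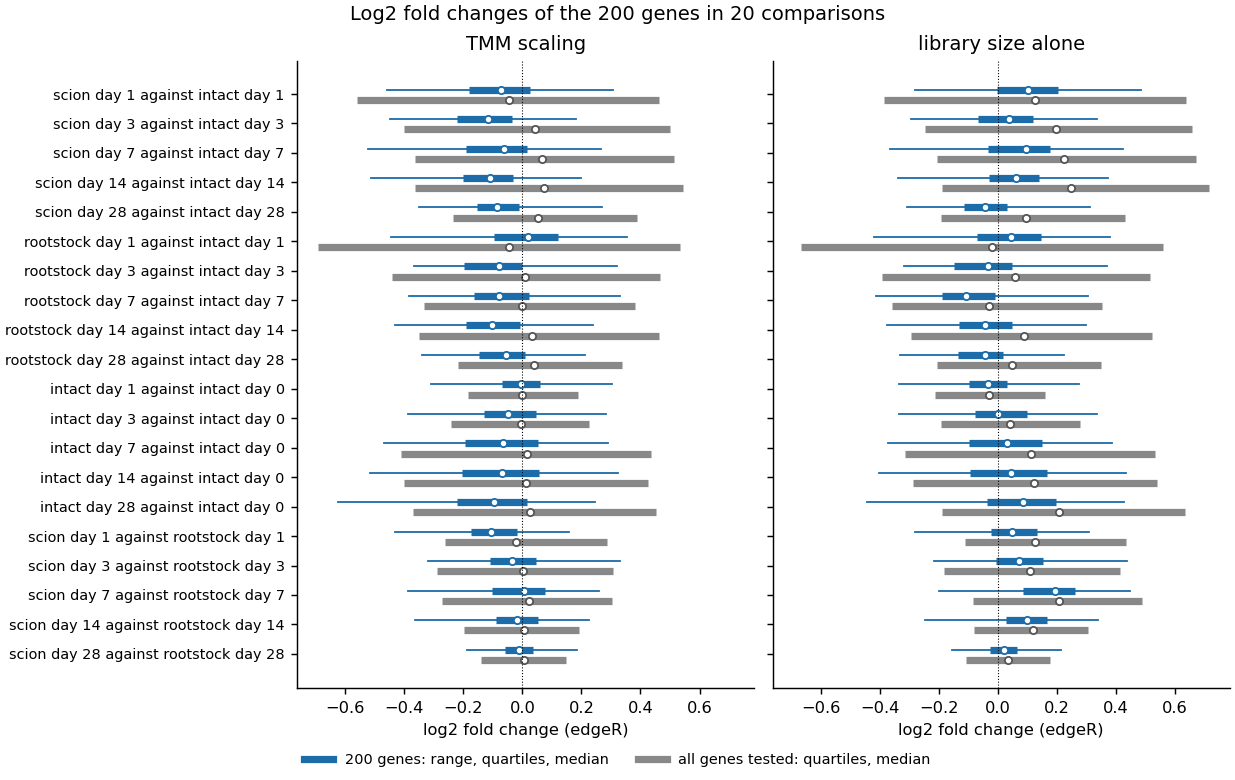
Log2 fold changes (x axis) in 20 comparisons with TMM scaling (left) and library size alone (right), with the range, quartiles and median of the 200 genes in blue and the quartiles and median of all 38436 genes tested in grey. The 200 genes lie within −0.62 and 0.36 with TMM, and their medians move with those of all genes when the scaling changes.

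With age, intact plants drew away from day 0. Of the 200, 6, 27, 66, 69 and 75 passed at any fold at 1, 3, 7, 14 and 28 days, where 1.99%, 12.3%, 40.4%, 41.5% and 42.8% of all genes tested did. Of the genes in the CPM range, 4.22%, 20.8%, 58%, 58.1% and 56.7% did. All 5 comparisons share the day 0 libraries. At 28 days 69 of the 75 were lower than at day 0 with TMM, as were 21.3% of all genes tested, while with library size alone 61 were higher and 18 lower. Library size alone raised the median of all genes by 0.183 there, and the share of all genes is with TMM only. Without replicate 2 the counts fell to 0, 1, 22, 36 and 39, and at 1 day also to 0 without replicate 3.

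MA_3653g0010 had the largest difference of any of the 200 in the 20 comparisons with TMM. It had 52.2, 53.4 and 47.7 CPM in intact plants at day 0 and 37.6, 38.2 and 37.0 CPM at 28 days. The groups did not overlap, and the log2 fold change was −0.62 ± 0.069 (SE) in edgeR and −0.65 to −0.44 under the alternatives. MA_10436903g0010 came next, with 82.6, 82.8 and 83.4 CPM at day 0 and 67.1, 64.1 and 64.4 CPM at 28 days, a log2 fold change of −0.53 ± 0.057. The other 3 of the 5 largest were also decreases, from −0.52 to −0.48, in scion against intact plants at 7 and 14 DAG and in intact plants at 28 days.

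The largest increases with TMM, picked out after the values were seen, were smaller and lay in rootstock at 1 DAG. Library size alone raised the median of all genes by 0.026 in that comparison. It raised it by 0.171 in scion against intact plants at 1 DAG and by 0.183 in intact plants at 28 days. Which differences are largest, and in which direction, can therefore change with the scaling. MA_177756g0010 had 193.2, 202.6 and 198.5 CPM in intact plants and 260.6, 261.7 and 251.1 CPM in rootstock, a log2 fold change of 0.36 ± 0.047. Scion of the same day had 262.4, 255.1 and 261.8 CPM, and in the edgeR fit with TMM a log2 fold change of 0.21 ± 0.047 against intact plants. MA_130348g0010 had 32.5, 31.6 and 34.3 CPM in intact plants and 41.7, 41.9 and 43.5 CPM in rootstock, a log2 fold change of 0.35 ± 0.060. In both, the lowest rootstock library lay above the highest intact one.

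Between scion and rootstock, fewer of the 200 genes passed at the later days, as over all genes. Compared directly, 45, 34, 31, 3 and 0 of the 200 passed at any fold at 1, 3, 7, 14 and 28 DAG, where 24.9%, 29.9%, 28.5%, 8.79% and 0.447% of all genes tested did. Of the genes in the CPM range, 37.2%, 44.7%, 42%, 14.2% and 0.744% did. At 28 DAG edgeR gave 9 of the 200 genes an unadjusted *p* under 0.05, a number that such a threshold can give without any difference. The share of all genes at that unadjusted threshold was not taken. DESeq2 gave 0 of the 200 with an adjusted *p* under 0.05. The median log2 fold change of the 200 genes lay below that of all genes in all 5 of these comparisons, by −0.082 to −0.016 with TMM and −0.078 to −0.015 with library size alone, which itself moved the median of all genes by 0.031 to 0.186. The nearness of these 2 ranges follows from the scaling, which moves all genes of a comparison nearly alike. All 45 at 1 DAG were lower in scion with TMM, as were 12.3% of all genes tested, while with library size alone 25 were higher and 5 lower. At 3 DAG 8 were higher and 26 lower with TMM, where 16% and 13.9% of all genes were, and with library size alone 45 and 5. The split at 7 DAG was 15 higher and 16 lower with TMM, where 15.2% and 13.3% of all genes were. With library size alone 111 were higher and 2 lower, in a comparison where that scaling raised the median of all genes by 0.186. The shares of all genes are with TMM only, so counts with library size alone are not set against all genes. Without replicate 3 in every group, 13 genes passed at 3 DAG and 10 at 7 DAG, and without replicate 2, 12 passed at 1 DAG and 0 at 14 DAG.

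Using the 200 genes themselves as the reference for scaling, in place of TMM, moved the calls of all other genes. The median log2 fold change of all genes tested then shifted by up to 0.124, the largest shift being that of scion at 3 DAG. By the study's rule, edgeR called 5004 genes higher and 2356 lower in scion at 14 DAG with this reference, against 4234 and 2870 with TMM. In rootstock at 1 DAG, 5227 were higher and 6442 lower, against 5294 and 6350. The share of higher calls went from 59.6% to 68.0% in the first and from 45.5% to 44.8% in the second.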

How the data were processed

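The 200 genes and the lists were chosen with earlier results of these data known. The authors made stranded poly(A) libraries, filtered reads with fastp, used STAR for alignment and HTSeq for counting per gene. The deposited counts are raw whole numbers, 70736 gene models by 48 libraries. Alignment was not repeated, so shares of reads between near-identical gene copies are as the authors counted them. Here the counts were divided by library totals (CPM), and SDs were taken of log2(CPM + 0.5). Tests used edgeR 4.0.16 in R 4.3.3, tried on simulated data first: filterByExpr, TMM factors, and 1 robust quasi-likelihood fit of the 16 groups, with Benjamini–Hochberg adjustment over all genes of a comparison. Standard errors were derived from the *F* statistic, as the size of the fold change divided by its root. Expected counting SDs are Poisson. Alternatives were DESeq2 1.42.0, RLE factors (the median-of-ratios size factors in edgeR), library size alone, other filters, thinned counts, a replicate block, a left-out replicate and other rankings.

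Genes were named by rule: the 10 of lowest SD, 3 on each side of rank 200, the 3 of highest and lowest mean CPM and of highest and lowest share between groups, and the 5 largest fold changes, of which only the first 2 are given by identifier. Keyword lists of gene functions could not be applied, as none of the 200 genes is annotated in the tables used, and no reference genome or sequences were used here.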

Additional observations from a re-analysis of the deposited data

Results flagged for a closer look

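The difference between the 2 grafted tissues was tested directly in the same edgeR fit at each day. Of the 200 genes, 45 differed between scion and rootstock at 1 DAG at an adjusted *p* under 0.05, 34 at 3 DAG, 31 at 7 DAG and 3 at 14 DAG. These are differences of size under 1 on the log2 scale, between −0.43 and 0.33 at 1 to 14 DAG. All genes tested gave 24.9%, 29.9%, 28.5% and 8.79% at the same days, and genes in the CPM range 37.2%, 44.7%, 42% and 14.2%. With library size alone, 25, 45, 111 and 26 genes were higher in scion, against 0, 8, 15 and 0 with TMM. That scaling also raised the median of all genes, by 0.148, 0.106, 0.186 and 0.115 at these days. The shares of all genes and of the range are with TMM only. Relative to all genes, the median of the 200 was lower in scion, by construction nearly equally so under both scalings. Genes in the CPM range lay nearer at 7 DAG, where the medians with TMM were 0.005 for the 200, 0.008 for the range and 0.021 for all genes.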

How the results depend on the processing

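How many of the 200 genes the rule kept depended most on the scaling and on the libraries: 84 on TMM libraries, 62 on DESeq2 size factors, 45 in intact and 75 in grafted libraries alone, 95 when ranked by median absolute deviation and 124 with a pseudocount of 5. It kept 156 to 161 without a replicate number, 161 to 188 without a group, and 145 to 195 under the other planned rankings. Relative to the mean of 1000 genes, a ranking chosen after seeing the data, 134 stayed. With library size alone, the median log2 fold change of the 200 genes in scion turned from −0.074, −0.118, −0.063 and −0.111 at 1, 3, 7 and 14 DAG to 0.10, 0.036, 0.096 and 0.063; in the fits without a replicate these medians ran from −0.130 to −0.010. Their median SD was 0.138 on size factors and 0.114 with a pseudocount of 5. In left-out replicates, the median SD on TMM libraries was 0.119, 0.121 and 0.118. No gene was called beyond a log2 fold change of 1 under any of the 11 alternatives. The count that passed at any fold against intact plants was 122 to 177, against 169.

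The replicate number as a block gave 168 genes in place of 169 against intact plants, and 42, 32, 31, 3 and 0 in place of 45, 34, 31, 3 and 0 between scion and rootstock. Deviations of scion and rootstock libraries of a day correlated at a median of 0.23 for the same number (−0.25 to 0.49, over 0.1 in 10 of 15 pairs) and −0.073 for other numbers (over 0.1 in 3 of 30), a hint of pairing that not every pair bears out. Those of grafted and intact libraries with the same number had a median of −0.005. In single comparisons, counts at any fold moved beyond 1.5 times in 61 of 220 cases, 42 of them without a replicate. Depth limits genes near 10 CPM, where counting alone gives an SD of about 0.104.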
